A study of Mus musculus with 9 samples.

Results

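The insulin-like growth factor (IGF) system was followed in mouse neural stem cells (NSCs) through 10 genes chosen by symbol: the ligands Igf1 and Igf2, the noncoding RNA H19, the receptors Igf1r and Igf2r, the binding proteins Igfbp2, Igfbp3, Igfbp4 and Igfbp5, and the protease Pappa. All 10 were found among 38197 gene symbols, and all 10 passed the filter on low counts that left 14742 genes for testing. IGF ligands signal through the tyrosine kinase receptor Igf1r, and Igf2r takes up Igf2 and delivers it to lysosomes for degradation. Secreted binding proteins hold the ligands outside the cell, and proteases such as Pappa cut some of these proteins and so release the ligand. In the developing nervous system the pathway is best known for promoting the survival, growth and division of progenitors.

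The cells were wild-type mouse embryonic stem cells of strain 129, grown as a monolayer and directed to a ventral neural fate with retinoic acid (RA) and SAG, an agonist of Smoothened that activates Shh signaling. RA and SAG were present from 0 to 3 days in differentiation conditions (DDC) in all 3 groups, which are labelled as differing in time alone. Progenitors were isolated by their surface Prominin-1 at 4.5DDC, at 5.5DDC or at 6.5DDC, and poly(A) RNA of 3 libraries per time point was sequenced with the TruSeq chemistry. Differentiated embryonic stem cells are a culture model, and the samples are sorted populations in which less RNA per cell and fewer cells of a type cannot be told apart. Nothing in the labels says that the replicates came from separate cultures, so p-values measure the spread between these libraries, which may be technical.

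Totals for replicates 1, 2 and 3 were 17820600, 11244489 and 14390493 counts at 4.5DDC, 25506192, 11573528 and 11066572 at 5.5DDC, and 12851795, 16479971 and 15913820 at 6.5DDC. Sox2, which marks neural progenitors, stood at 82.1 ± 5.18 FPKM (fragments per kilobase of transcript, scaled to sequencing depth; mean ± SD, n = 3) at 4.5DDC and at 87.6 ± 7.37 FPKM (n = 3) at 6.5DDC. Prom1, which encodes the protein used for the sort, was detected throughout and rose from 79.1 to 183 FPKM (log2 fold change 1.19 ± 0.18 SE, edgeR adjusted p = 0.00363). Pou5f1, a marker of pluripotent cells, never exceeded 3 counts in a library. Markers of the labelled cell type were thus present, but they did not all hold their level. Of 10 listed progenitor markers, 1 rose (Prom1) and 2 fell from 4.5DDC to 6.5DDC. Those that fell were Sox3 (log2 fold change -1.80 ± 0.49 SE, edgeR adjusted p = 0.0330) and Nkx6-1 (-1.14 ± 0.28, adjusted p = 0.0220). In addition, 7 markers of postmitotic neurons were found at a summed 157 to 617 FPKM.

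Libraries of replicate 1 stood apart from the others. On the second principal component of log2 counts-per-million (CPM), which held 27.1% of the variance, the 3 replicate 1 libraries scored 23.1, 56.1 and 54.2, and the other 6 scored from -51.1 to 0.936. Replicates 2 and 3 of 5.5DDC were much more alike than other replicates, with a chi-square of 2.58 per gene against 25.5 to 67.4 for the other 8 pairs. That value is above the value of about 1 that sampling alone gives, but it cannot show whether the 2 libraries came from separate cultures. They were kept as separate libraries, and results are also given with them summed. Unless another test is named, changes and adjusted p come from edgeR's quasi-likelihood test on all 9 libraries, with Benjamini-Hochberg adjustment over all genes tested and a threshold of 0.05. Errors of log2 fold changes are approximate standard errors (SE). In edgeR they were derived as the size of the change divided by the square root of its F statistic.

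Of the 10 genes, 1 was called between 4.5DDC and 6.5DDC, Pappa, which fell, and 9 were not. Over the same span 18.7% of all genes tested were called, 9.21% higher and 9.53% lower, a share above that of the 10 genes. The median log2 fold change of the 10 genes was 0.44, beside 0.00 for all genes tested. None of the 10 was called from 4.5DDC to 5.5DDC, where 0.0746% of all genes were called, or from 5.5DDC to 6.5DDC, where 0.224% were called. At an unadjusted p under 0.05, edgeR counted 2 of the 10 in the earlier interval, beside 15.4% of all genes tested, and 1 in the later one, beside 18.5%. Of the 10, limma voom called 0 in both intervals, beside 10 and 21 of all 14742 genes tested. DESeq2 called 1 of the 10 in the earlier interval (Igfbp2), beside 454 of 23118 genes, and 0 in the later, beside 615. With the replicate number as a block, 212 and 195 genes were called in the 2 intervals in place of 11 and 33, and still 0 of the 10.

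**Figure D1:**
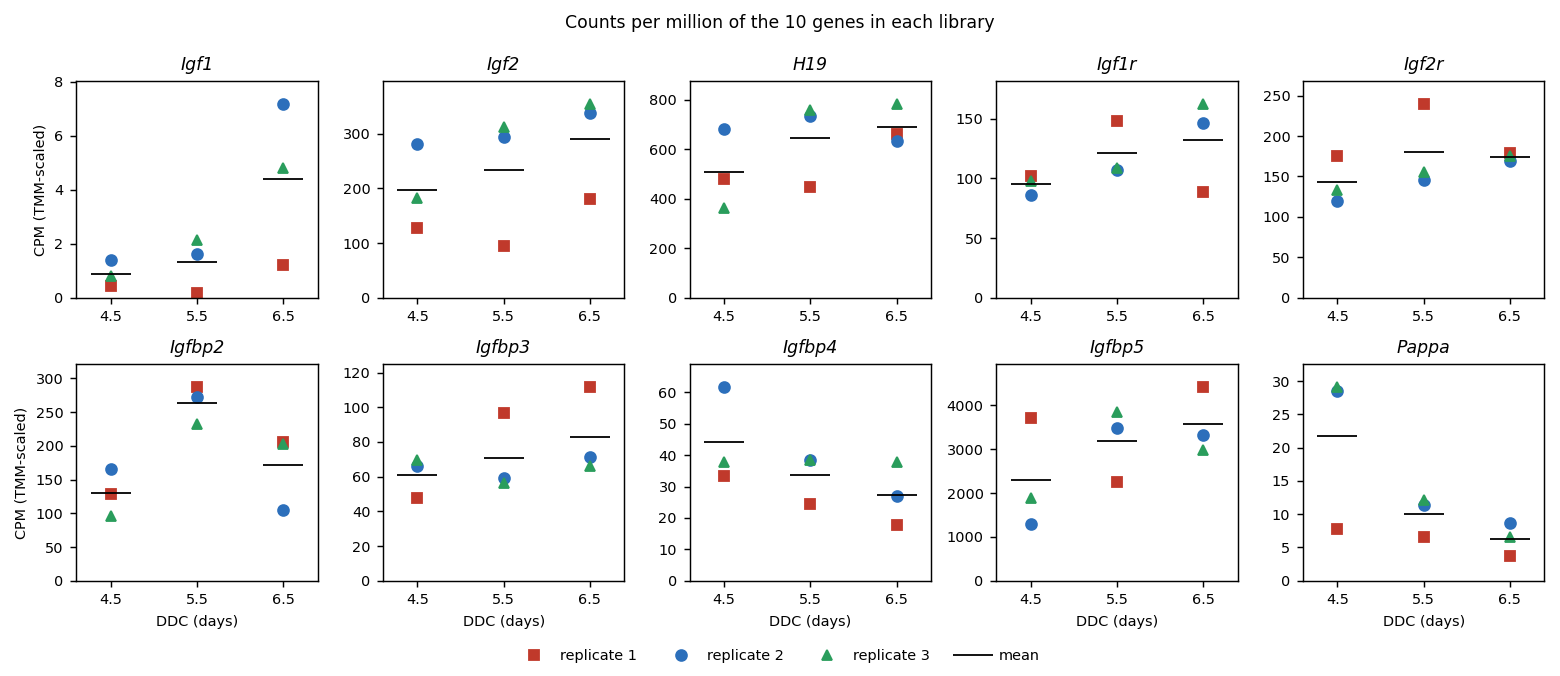
Counts-per-million (CPM, scaled by TMM size factors; linear axes from 0) of each of the 10 genes against time in DDC, with 1 point per library, shape and color for the replicate number and a bar for the mean of 3 libraries. Igf1, Igf2, Igfbp4 and Pappa were lowest in replicate 1 at every time point, and Pappa was highest in replicates 2 and 3 of 4.5DDC, at 28.5 and 29.0 CPM.

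Levels of different genes are compared as FPKM, which takes transcript length into account. Igfbp5 had the highest mean of the 10 at every time point, with 310 ± 175 FPKM at 4.5DDC, 439 ± 117 at 5.5DDC and 481 ± 82.1 at 6.5DDC (SD, n = 3 each). H19 came next, followed by Igfbp2 and Igf2, and this order of the means of the 4 most abundant genes was the same at the 3 time points. The ranges of Igfbp5 and H19 overlapped at 4.5DDC and 5.5DDC but not at 6.5DDC, where H19 averaged 383 ± 32.6 FPKM. At 5.5DDC those of H19 and Igfbp2 and those of Igf2 and Igfbp3 overlapped too. Igfbp3, Igf1r, Igfbp4 and Igf2r formed a middle group with means of at most 27.9 FPKM, in which Igfbp3 overlapped with its next neighbor at every time point. Pappa and Igf1 were last, with means of at most 1.48 FPKM.

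Igf1 (chr10:87858265-87937042, plus strand, here and for the other genes in the GENCODE M21 annotation of the mouse genome build GRCm38) encodes a secreted ligand of Igf1r and was the gene with the fewest counts. Its counts were 8, 16 and 11 in replicates 1, 2 and 3 of 4.5DDC, 5, 19 and 24 at 5.5DDC, and 15, 117 and 79 at 6.5DDC. Replicates 2 and 3 of 6.5DDC exceeded all other libraries, whereas replicate 1 of 6.5DDC, at 1.23 CPM, lay within the 4.5DDC range of 0.444 to 1.41 CPM. Between 4.5DDC and 6.5DDC its log2 fold change was 2.35 ± 0.85, with an edgeR adjusted p of 0.0808 and a DESeq2 adjusted p of 0.0202. Without replicate 1 at any time point it was 2.45, with an edgeR adjusted p of 0.00327, and it was also called without replicate 1 of 5.5DDC alone (adjusted p = 0.0298) or of 6.5DDC alone (0.0375).

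The deposited FPKM of Igf1 did not follow its counts. The ratio of FPKM to CPM for Igf1 ranged 8.33-fold over the 9 libraries, against 1.04-fold for Igf2r and 1.02-fold for Igf1r. In replicate 2 of 4.5DDC, 16 counts stood beside 1.31 FPKM, and in replicate 3 of 6.5DDC, 79 counts stood beside 0.737 FPKM. On the log2(FPKM + 1) scale, which understates changes of low genes, the limma estimate for the whole span was 0.20 (adjusted p = 0.679). The same ratio ranged 1.79-fold for Igfbp4 and 1.47-fold for H19.

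Igf2, the fetal ligand, is expressed from the paternal allele in most tissues. It measured 127, 281 and 182 CPM in replicates 1, 2 and 3 of 4.5DDC, 95.0, 293 and 311 CPM at 5.5DDC, and 181, 338 and 353 CPM at 6.5DDC. Replicate 1 was the lowest library of each time point, and the 3 time points overlapped. Over the whole span its log2 fold change was 0.57 ± 0.45 (edgeR adjusted p = 0.395), and Igf2 was called under none of the 23 alternatives tried. Igf2 lies on the minus strand at chr7:142650766-142666816, where the gene model Gm49394 on the same strand covers 62.8% of Igf2's exonic bases and the antisense Igf2os covers 98 bases. Reads in such bases may not have been counted for Igf2, since the handling of shared bases and the annotation release are not given in the sources used here.

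H19, a long noncoding RNA from the maternal allele of the same imprinted domain, lies at chr7:142575529-142578143 (minus strand). Its levels were 479, 680 and 362 CPM in replicates 1, 2 and 3 of 4.5DDC, 446, 736 and 760 CPM at 5.5DDC, and 662, 633 and 781 CPM at 6.5DDC. The groups overlapped, and the log2 fold change over the whole span was 0.45 ± 0.26 (edgeR adjusted p = 0.242). The log2 ratio of H19 to Igf2 counts, with 1 count added to each, was 1.39 ± 0.47 at 4.5DDC, 1.62 ± 0.53 at 5.5DDC and 1.31 ± 0.50 at 6.5DDC (SD, n = 3). Between 4.5DDC and 6.5DDC it differed by -0.088, which gave p = 0.7 in a two-sided exact permutation test whose smallest possible p is 0.1. Within each time point the ratio was highest in replicate 1, at 1.91, 2.23 and 1.87, while the other 6 libraries lay between 0.90 and 1.33.

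Both genes host a microRNA, and the mature sequences are shown because these loci yield products that the gene counts do not describe. The sequences are from RefSeq (GRCm38.p6, chromosome 7, minus strand), with the seed, bases 2 to 8, in capitals. Those of Mir675, which shares 84 bases with the exons of H19, are at chr7:142577112-142577133 (5p) and chr7:142577078-142577099 (3p), and those of Mir483, which lies within Igf2 and shares no base with its exons, are at chr7:142654968-142654989 (5p) and chr7:142654932-142654952 (3p).
mmu-miR-675-5p: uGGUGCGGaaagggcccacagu
mmu-miR-675-3p: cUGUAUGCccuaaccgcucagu
mmu-miR-483-5p: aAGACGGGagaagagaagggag
mmu-miR-483-3p: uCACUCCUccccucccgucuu
The 4 seeds differ from one another. The row of Mir675 held 0 counts in all 9 libraries and that of Mir483 held 5 in total, and poly(A) libraries do not measure mature microRNAs.

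The ligands can be set beside the markers of other cell types, since their lowest libraries recurred there. The summed FPKM of 10 mesenchyme markers, of which Dcn was the most abundant, was 13.8, 25.5 and 33.1 in replicates 1, 2 and 3 of 4.5DDC, 20.9, 51.0 and 50.6 at 5.5DDC, and 36.7, 107 and 124 at 6.5DDC. Like Igf1 and Igf2, and also Igfbp4 and Pappa, this sum was lowest in replicate 1 at every time point. So were 7, 9 and 8 of the 10 genes at 4.5DDC, 5.5DDC and 6.5DDC. The share of all genes that were lowest in replicate 1 was not worked out, and replicate 1 stood apart on the second principal component. Twist1 was highest in replicate 1 at 5.5DDC and 6.5DDC (9.08 and 9.23 FPKM), Pdgfra at 4.5DDC and 6.5DDC (1.36 and 3.96 FPKM), and Pdgfrb at 4.5DDC (1.70 FPKM). Of the 10 mesenchyme genes, 2 rose from 4.5DDC to 6.5DDC (Twist1 and Postn) and 0 fell, with a median log2 fold change of 1.60, and at an unadjusted edgeR p under 0.05 there were 7, beside 35.4% of all genes tested. DESeq2 called 4 of the 10 and limma voom 1, beside 3629 of 23118 and 2608 of 14742 genes tested. In edgeR, 9.21% of all genes tested rose over this span. The 7 neuronal markers, of which Map2 and Gata3 rose and Isl1 fell (named after their values were seen), summed to 251, 571 and 617 FPKM in replicates 1, 2 and 3 of 6.5DDC, with Stmn2 the most abundant and a median log2 fold change of 1.23 over the whole span. Endoderm markers had the opposite order, with a sum over 10 genes of 21.4 to 24.9 FPKM in the 3 replicate 1 libraries and of 7.94 to 11.1 FPKM in the other 6, of which Dab2 was the most abundant and Amn never exceeded 3 counts. Of the 5 endoderm genes tested, whose median log2 fold change was 1.35, edgeR, DESeq2 and limma voom called 0 over the whole span, and 0 had an unadjusted edgeR p under 0.05. The part of these cells in the levels of the ligands was not tested.

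**Figure D2:**
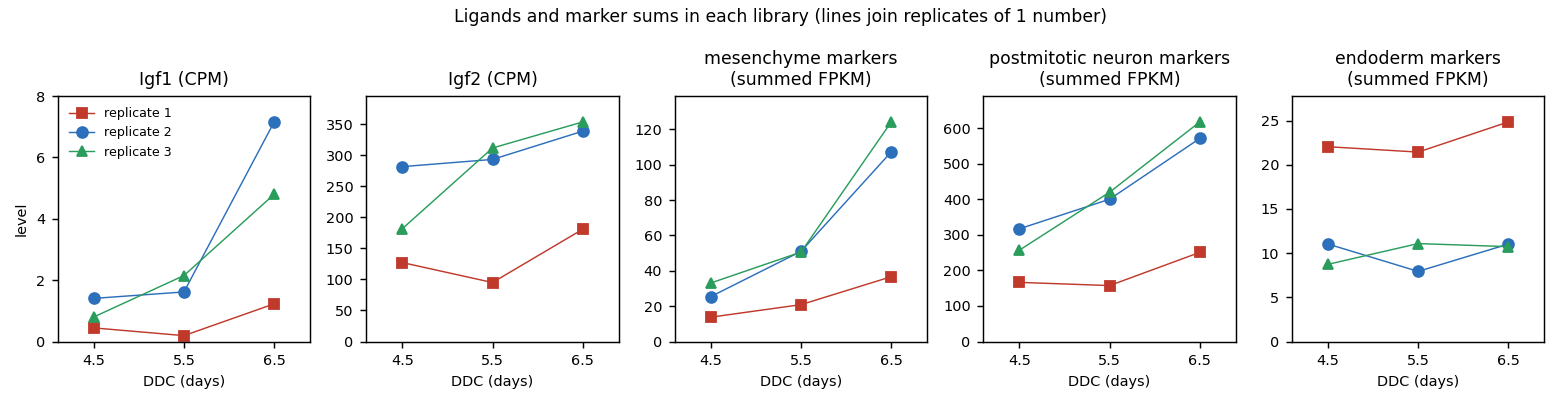
Igf1 and Igf2 in CPM and the summed FPKM of 10 mesenchyme, 7 postmitotic neuron and 10 endoderm markers against time in DDC, with 1 point per library and lines joining libraries of the same replicate number. Replicate 1 was lowest for both ligands and for the summed mesenchyme and neuron markers at each time point, and highest for the summed endoderm markers.

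Progenitor markers did not share 1 order of replicates, floor plate markers were mostly highest in replicate 1, and the remaining lists were low. The 10 progenitor markers, led by Fabp7, summed to 535, 857 and 907 FPKM in replicates 1, 2 and 3 of 4.5DDC and to 1144, 1407 and 1178 FPKM at 6.5DDC, and Prom1 rose and Sox3 and Nkx6-1 fell. Fabp7 itself measured 142, 439 and 504 FPKM in replicates 1, 2 and 3 of 4.5DDC. Of the 10, 5 were lowest in replicate 1 at 4.5DDC and 3, Sox1, Sox2 and Prom1, were highest there, and at 6.5DDC 5 were lowest and 2 highest. Floor plate markers, 6 genes led by Ntn1, summed to 578 to 933 FPKM at 4.5DDC and to 1289 to 1434 FPKM at 6.5DDC, and Shh, Spon1 and Ntn1 were among those that rose. All 6 were highest in replicate 1 at 4.5DDC and at 5.5DDC, but 2 were highest and 2 lowest in it at 6.5DDC. Oligodendrocyte precursor, neural crest, endothelium and pluripotent cell markers reached at most 12.9, 5.27, 8.69 and 5.10 FPKM, led by Olig2, Ets1, Cdh5 and Klf4. Of these lists 3, 2, 4 and 2 genes were tested, with median log2 fold changes of -2.89, -0.86, 0.88 and -0.26 beside 0.020 for progenitor and 0.91 for floor plate markers. In the low lists Ets1 fell and Kdr rose over the whole span, and the called markers are named here after their values were seen. For oligodendrocyte precursor markers edgeR and limma voom called 0, DESeq2 called 1 and 3 had an unadjusted edgeR p under 0.05, beside 35.4% of all genes. These 3 had log2 fold changes of both signs, -4.57 for Olig1, -2.89 for Olig2 and 1.26 for Pdgfra, which is also a listed mesenchyme marker. For pluripotent cell markers all of these counts were 0. Sox10, which defines both neural crest and the oligodendrocyte lineage, never exceeded 3 counts.

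Igf1r (chr7:67952827-68233668, plus strand), the signaling receptor for both ligands, measured 102, 86.2 and 97.4 CPM in replicates 1, 2 and 3 of 4.5DDC, 148, 107 and 109 CPM at 5.5DDC, and 88.6, 146 and 162 CPM at 6.5DDC. The 5.5DDC libraries all lay above those of 4.5DDC, while replicate 1 of 6.5DDC lay inside the 4.5DDC range. The log2 fold change over the whole span was 0.47 ± 0.22 (edgeR adjusted p = 0.159), and it was 0.69 (adjusted p = 0.0239) without replicate 1 of 6.5DDC and 0.31 (adjusted p = 0.386) without replicate 3 of 6.5DDC.

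Igf2r (chr17:12682406-12769664, minus strand), the receptor that clears Igf2, measured 175, 119 and 134 CPM in replicates 1, 2 and 3 of 4.5DDC, 239, 146 and 156 CPM at 5.5DDC, and 179, 169 and 175 CPM at 6.5DDC. Replicate 1 was the highest library of each time point, and the 6.5DDC libraries spread least (SD 4.67 CPM). Over the whole span its log2 fold change was 0.29 ± 0.21 (edgeR adjusted p = 0.345). Airn, the antisense transcript of the same locus, measured 4.42 ± 2.25 CPM at 4.5DDC and 6.02 ± 0.317 CPM at 6.5DDC (SD, n = 3), and it shares no exonic base with Igf2r in GENCODE M21.

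Sequences just before the start of transcription are shown for both receptors and for the binding proteins with the lowest and the highest mean FPKM at 6.5DDC, Igfbp4 and Igfbp5, to show how the starts of these genes are built. Each is the 100 bases before a RefSeq start (GRCm38.p6), and capitals mark the GC box GGGCGG and the TATA box TATAAA, searched on both strands. For Igfbp4 the RefSeq start is also the start of the gene in GENCODE M21, and for Igf1r, Igf2r and Igfbp5 the 2 differ. Igf1r lies on the plus strand (chr7:67952157-67952256), Igf2r on the minus strand (chr17:12769707-12769806), Igfbp4 on the plus strand (chr11:99041144-99041243) and Igfbp5 on the minus strand (chr1:72874866-72874965).
Igf1r: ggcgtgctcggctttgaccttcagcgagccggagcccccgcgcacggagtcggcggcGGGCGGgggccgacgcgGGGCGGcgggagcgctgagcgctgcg
Igf2r: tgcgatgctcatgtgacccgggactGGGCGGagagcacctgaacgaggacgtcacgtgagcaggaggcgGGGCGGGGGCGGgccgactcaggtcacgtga
Igfbp4: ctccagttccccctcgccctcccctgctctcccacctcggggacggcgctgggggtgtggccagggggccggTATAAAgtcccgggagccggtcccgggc
Igfbp5: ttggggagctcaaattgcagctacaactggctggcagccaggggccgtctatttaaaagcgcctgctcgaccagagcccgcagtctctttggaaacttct
Both receptors carried GC boxes in this stretch, 2 in Igf1r and 3 in Igf2r, and Igfbp4 carried the TATA box. Of the 10 genes, 8 matched a promoter entry, with 12 starts between them, and H19 and Pappa did not. In the 250 bases before the start, a GC box was present at 5 of the 12 starts (Igf1r, Igf2r, Igfbp2 and 2 of 4 for Igf2) and at 32.7% of 32851 promoters, and a TATA box at 1 of the 12 and at 12.4% of promoters.

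Igfbp2 (chr1:72824503-72852474, plus strand), a binding protein of the developing brain, measured 128, 166 and 95.4 CPM in replicates 1, 2 and 3 of 4.5DDC, 287, 272 and 232 CPM at 5.5DDC, and 206, 105 and 202 CPM at 6.5DDC. All 3 libraries of 5.5DDC exceeded the other 6. Its log2 fold change was 1.02 ± 0.27 from 4.5DDC to 5.5DDC (edgeR adjusted p = 0.168, DESeq2 adjusted p = 0.0218) and -0.62 ± 0.27 from 5.5DDC to 6.5DDC (edgeR adjusted p = 0.257). The later change minus the earlier one was -1.65 ± 0.46 on the log2 scale, with an unadjusted edgeR p of 0.00485 and an adjusted p of 0.760. For that difference edgeR called 0% of all genes tested, limma voom called 0 of the 10 genes, and 1 of the 10 had an unadjusted p under 0.05 in either test, beside 4.76% of all genes in edgeR and 6.32% in voom.

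Igfbp3 (chr11:7206086-7213923, minus strand), the main carrier of IGFs in serum, measured 47.6, 66.1 and 69.8 CPM in replicates 1, 2 and 3 of 4.5DDC, 97.0, 59.3 and 56.2 CPM at 5.5DDC, and 111, 71.6 and 66.1 CPM at 6.5DDC. Replicate 1 was the lowest library at 4.5DDC and the highest at 5.5DDC and 6.5DDC. From the first to the last time point its log2 fold change was 0.44 ± 0.27 (edgeR adjusted p = 0.270) in all libraries and 0.017 (edgeR adjusted p = 0.939) in replicates 2 and 3.

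Igfbp4 (chr11:99041244-99054392, plus strand), a binding protein that Pappa cuts, measured 33.2, 61.6 and 37.9 CPM in replicates 1, 2 and 3 of 4.5DDC, 24.4, 38.4 and 38.4 CPM at 5.5DDC, and 17.7, 26.9 and 37.7 CPM at 6.5DDC. Its mean CPM was lower at each later time point, but the groups overlapped. Replicate 1 was its lowest library at each time point. The whole-span log2 fold change was -0.69 ± 0.32 (edgeR adjusted p = 0.160).

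Igfbp5, another substrate of Pappa, lies beside Igfbp2 on the opposite strand (chr1:72857932-72874884). It was among the 32 genes with the most counts in each library and ranked 1 in replicate 1 of 6.5DDC, with 53880 counts or 0.419% of the library. It measured 3709, 1302 and 1879 CPM in replicates 1, 2 and 3 of 4.5DDC, 2243, 3489 and 3841 CPM at 5.5DDC, and 4412, 3333 and 2978 CPM at 6.5DDC. At 4.5DDC replicate 1 was far above replicates 2 and 3, whereas at 5.5DDC it was the lowest. The log2 fold change over the whole span was 0.64 ± 0.36 (edgeR adjusted p = 0.231), without replicate 1 of 4.5DDC it was 1.17 (adjusted p = 0.0296), and without replicate 2 of 4.5DDC it was 0.35 (adjusted p = 0.540).

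Pappa (chr4:65124174-65357509, plus strand), a secreted metalloprotease that cuts Igfbp4 and Igfbp5, measured 7.78, 28.5 and 29.0 CPM in replicates 1, 2 and 3 of 4.5DDC, 6.59, 11.3 and 12.2 CPM at 5.5DDC, and 3.69, 8.75 and 6.56 CPM at 6.5DDC. It fell 3.41-fold from 4.5DDC to 6.5DDC (log2 fold change -1.77 ± 0.50, edgeR adjusted p = 0.0371). Replicate 1 was the lowest library of each time point, and its 4.5DDC value lay within the range of 6.5DDC. The 4.5DDC libraries therefore overlapped with those of 6.5DDC. The call was lost on leaving out any of 7 libraries (replicates 2 and 3 of 4.5DDC, replicates 2 and 3 of 5.5DDC and all replicates of 6.5DDC), with edgeR adjusted p from 0.0539 to 0.123. It was also lost when replicates 2 and 3 of 5.5DDC were summed (edgeR adjusted p = 0.0555), in limma voom (adjusted p = 0.0995), in the limma fits of FPKM and in a fit of the 6 libraries compared, and the log2 fold change was negative under all 23 alternatives tried.

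Replicates 2 and 3 alone gave a different count. In a fit of these 6 libraries, 5 of the 10 genes were called between 4.5DDC and 6.5DDC, of which Igf1, Igf1r, Igf2r and Igfbp5 rose and Pappa fell, and 31.3% of all genes tested were called (16.5% higher, 14.8% lower). The closely similar pair of 5.5DDC enters this fit, with 2 libraries per time point. Without the 5.5DDC libraries the count was 4, with Igf1, Igf1r and Igfbp5 higher and Pappa lower, and 21.0% of all genes were called (11.4% higher, 9.69% lower). Igf2r then had a log2 fold change of 0.43 and an edgeR adjusted p of 0.123. On leaving out 1 library at a time, the whole-span log2 fold change ranged from 0.33 to 0.91 for Igf2, 0.26 to 0.71 for H19, 0.17 to 0.46 for Igf2r, 0.22 to 0.66 for Igfbp2, 0.17 to 0.59 for Igfbp3 and -0.98 to -0.38 for Igfbp4, and none of these was called.

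**Figure D3:**
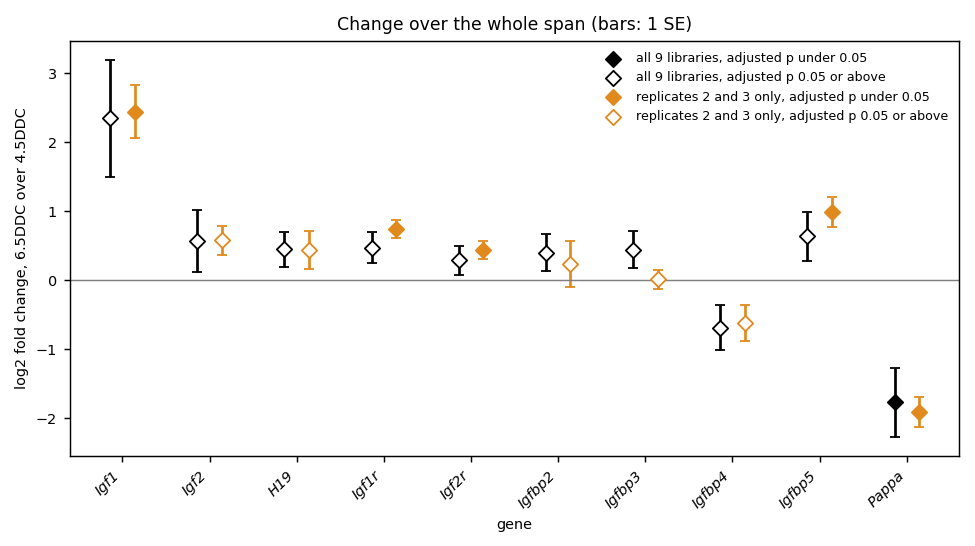
log2 fold change of each of the 10 genes from 4.5DDC to 6.5DDC (y axis, bars 1 SE) in all 9 libraries (black) and in replicates 2 and 3 only (orange), with filled symbols for an adjusted p under 0.05 in edgeR. Pappa alone was filled in all libraries, at -1.77, and 5 genes were filled in replicates 2 and 3.

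Relatives of the 10 genes included a regulator of the protease. Of 17 listed relatives 16 had a row in the table used here, 9 were tested, 1 rose and 2 fell over the whole span, beside 9.21% of all genes tested that rose and 9.53% that fell, with a median log2 fold change of 0.44. Stc1 encodes a stanniocalcin, a secreted inhibitor of Pappa, and measured 8.50, 1.93 and 4.15 CPM in replicates 1, 2 and 3 of 4.5DDC and 36.4, 14.2 and 11.9 CPM at 6.5DDC. The 6.5DDC libraries all exceeded those of 4.5DDC, and Stc1 rose by 2.08 ± 0.55 on the log2 scale (edgeR adjusted p = 0.0290), although leaving out any of 4 libraries (replicates 2 and 3 of 4.5DDC, replicates 1 and 2 of 6.5DDC) raised the edgeR adjusted p to between 0.0527 and 0.0860. The call was also lost in 2 of the 14 other alternatives, the edgeR fit of the 6 libraries compared (adjusted p = 0.0511) and the unfiltered limma fit of FPKM (0.0749). The log2 fold change of Stc1 was 1.40 without replicate 1 of 6.5DDC and 2.76 without replicate 1 of 4.5DDC. Stc2, its paralog, had a log2 fold change of 0.28 ± 0.41 (edgeR adjusted p = 0.661). Pappa2, a related protease, had one of 2.64 ± 0.96 (edgeR adjusted p = 0.0819), from 0.333, 2.81 and 5.17 CPM at 4.5DDC to 17.1, 18.3 and 15.8 CPM at 6.5DDC, and in FPKM its level at 6.5DDC was above that of Pappa (3.07 ± 0.636 against 0.438 ± 0.178, SD, n = 3).

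The Igf2 mRNA-binding proteins, which bind Igf2 and other transcripts, were the relatives with the most counts. Igf2bp1 fell 2.37-fold, from 549 ± 36.7 CPM at 4.5DDC through 387 ± 12.1 at 5.5DDC to 232 ± 26.1 at 6.5DDC (SD, n = 3). The 3 groups did not overlap, the edgeR adjusted p was 0.000976, and the call was kept under all 23 alternatives. Igf2bp3 fell by 0.57 ± 0.13 on the log2 scale (edgeR adjusted p = 0.0176), a call lost on leaving out replicate 2 or 3 of 4.5DDC or of 6.5DDC (adjusted p 0.0504 to 0.0544) and in the fit of the 6 libraries compared (0.0505), and Igf2bp2 had a log2 fold change of -0.39 ± 0.16 (adjusted p = 0.105). Insr, the insulin receptor, which also binds IGFs, had one of 0.77 ± 0.27 (edgeR adjusted p = 0.0723), and that of Igfbpl1 was 0.75 ± 0.70 (adjusted p = 0.480). The other 7, namely Ins1, Ins2, Insrr, Igfbp1, Igfbp6, Igfbp7 and Igfals, did not pass the filter and reached at most 26 counts. Ins1 and Ins2 held 0 counts in all 9 libraries, which allows up to 0.271 CPM in the shallowest library (3 counts, counting error only).

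Downstream of the receptors, all 25 listed signaling genes were tested, 3 rose and 2 fell over the whole span, with a median log2 fold change of -0.06. These 5 calls are a share near the 18.7% of all genes tested. Irs1, the docking protein of the activated receptors, rose by 0.83 ± 0.21 on the log2 scale (edgeR adjusted p = 0.0230), from 210 to 374 CPM on average. Grb10 and Grb14, related adaptors that restrain these receptors, moved in opposite directions at low levels: Grb10 fell from 7.55 to 2.53 CPM (log2 fold change -1.58 ± 0.30, edgeR adjusted p = 0.00834) and Grb14 rose from 1.41 to 3.72 CPM (1.39 ± 0.30, adjusted p = 0.0139). Foxo3, a transcription factor that Akt restrains, rose by 0.57 ± 0.16 on the log2 scale (edgeR adjusted p = 0.0364), and Eif4ebp1, a translational repressor under mTOR, fell, with a log2 fold change of -1.40 ± 0.39 (adjusted p = 0.0345). Foxo3 was called only without replicate 1 of 5.5DDC or of 6.5DDC when 1 library was left out, with edgeR adjusted p up to 0.127 otherwise, and Eif4ebp1 only without replicate 3 of 4.5DDC or replicate 1 of 5.5DDC or of 6.5DDC, with values up to 0.125 otherwise. Without replicate 2 of 4.5DDC the log2 fold change of Eif4ebp1 was -0.89. Of the 14 other alternatives, 5 lost the call of Foxo3 (adjusted p up to 0.0854 in edgeR or limma) and 7 that of Eif4ebp1 (up to 0.114). The call of Irs1 was lost without replicate 2 or 3 of 4.5DDC or replicate 2 of 6.5DDC (edgeR adjusted p 0.0647 to 0.0910), and that of Grb14 without replicate 2 of 4.5DDC (0.0548). Irs1 was also not called in 1 of the 14 others, a limma fit of FPKM (adjusted p = 0.0515). In the 3 limma fits of FPKM neither Grb10 nor Grb14 was called, with adjusted p up to 0.217 and 0.349.

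**Figure D4:**
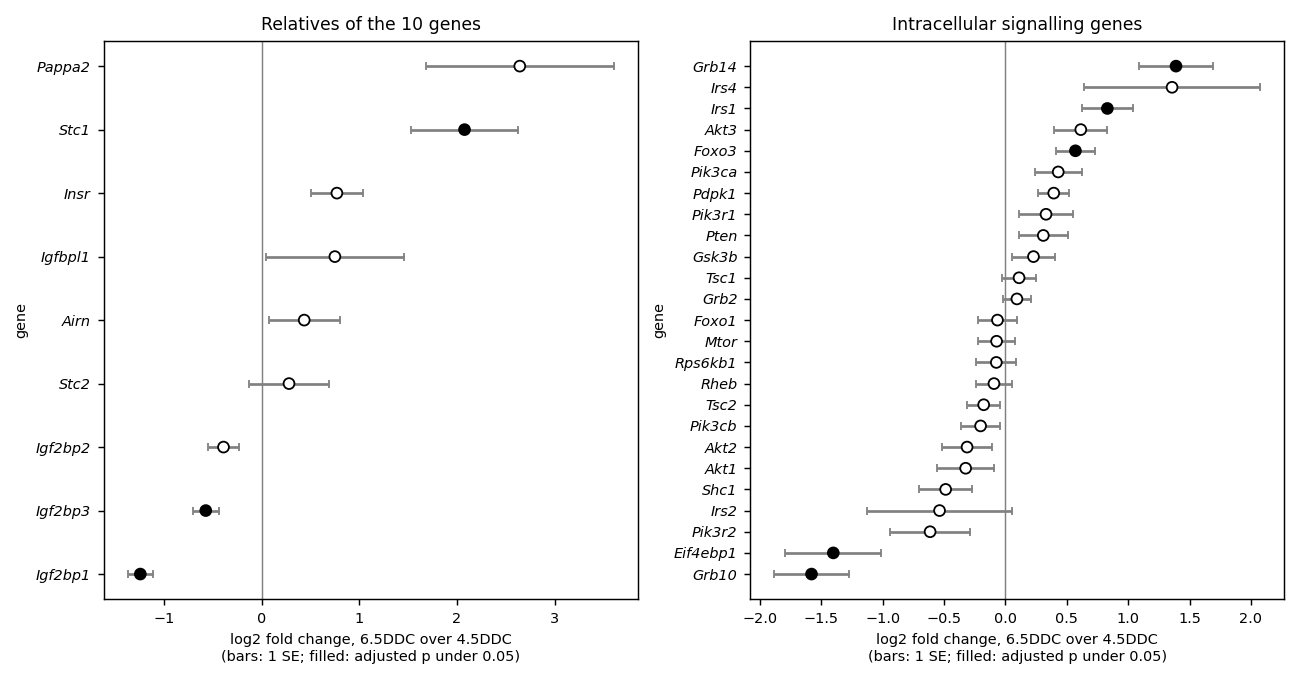
log2 fold change from 4.5DDC to 6.5DDC (x axis, bars 1 SE) of the 9 tested relatives and the 25 signaling genes (y axis), with filled symbols for an adjusted p under 0.05 in edgeR. Stc1 rose and Igf2bp1 and Igf2bp3 fell among relatives, and Grb14, Irs1 and Foxo3 rose and Grb10 and Eif4ebp1 fell among signaling genes.

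The genes whose log2 CPM was most like that of each of the 10 over the 9 libraries are given as a description, without p since they were taken as the highest of all genes tested. Igf2 was most like Snap25, Chrnb2 and Nyap2 (Pearson r = 0.994, 0.987 and 0.987), of which Snap25 and Chrnb2 encode a synaptic fusion protein and a nicotinic receptor subunit of neurons. Igf1 was most like Gm5113, Dnajc6 and Zfp87 (0.995, 0.985 and 0.983), and H19 most like Cltb, Ccdc116 and Cygb (0.955, 0.954 and 0.938). Among receptors, Igf1r was near to Klf11 and Fbxl20 (0.985 and 0.958) and Igf2r to Renbp, Pbxip1 and Ppfibp2 (0.978, 0.978 and 0.977). Igfbp2 was nearest to Ephb2, Kctd1 and Rundc1 (0.980, 0.974 and 0.943), Igfbp3 to Rps25, Eif3h and Echs1 (0.961, 0.958 and 0.933), and Igfbp4 to Gm3687, Adamtsl2 and Dpysl5 (0.979, 0.973 and 0.973). Igfbp5 had the lowest such values, with Naip6, Gm12097 and Gramd1b (0.945, 0.918 and 0.876), and Pappa was nearest to Slc39a14, Fndc3c1 and Gstcd (0.976, 0.967 and 0.966). Replicate 1 stood apart in these libraries, and its part in the correlations was not tested.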

How the data were processed

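Poly(A) RNA was sequenced from 9 libraries. Per the submitters' processing notes and the study's methods, the authors mapped reads to GRCm38 with TopHat2 2.0.4, counted them with HTSeq 0.6.1 and made FPKM with Cufflinks 2.1.1; the annotation release and the strand handling of htseq-count are not given in the sources used here. The deposited estimated counts per gene were used. The counts of 98 symbols were not whole, so counts were rounded. The deposited FPKM values of the authors were used as given, for levels between genes. Counts were tested with edgeR 4.0.16 (quasi-likelihood, TMM, filterByExpr on time point) in 1 fit of all 9 libraries with time point as the only factor. Each kind of fit was also run on simulated counts with known changes. Those had a single dispersion for all genes and no difference between replicates, so they do not cover the distinct replicate 1 or the similar pair of 5.5DDC. DESeq2 1.42.0, limma 3.58.1 (voom and log2 FPKM), other scalings and filters, the replicate block and left-out libraries were alternatives. Totals were 11066572 to 25506192 counts. Same-numbered libraries deviated together between 4.5DDC and 5.5DDC (r = 0.733, 0.380, 0.440) and between 5.5DDC and 6.5DDC (0.453, 0.346, 0.200). Between 4.5DDC and 6.5DDC replicate 1 did (0.375), and replicates 2 and 3 did not (-0.019, -0.181). The numbers were taken to pair libraries of adjacent time points only (every r over 0.1). That rule cannot show a pairing of replicates 2 and 3, since deviations were taken from a mean that replicate 1 shares. Replicates 2 and 3 also correlated across numbers. Replicate 3 of the earlier and replicate 2 of the later time point gave r = 0.381 (4.5DDC and 5.5DDC) and 0.393 (5.5DDC and 6.5DDC). Replicate 2 of the earlier and replicate 3 of the later gave 0.293 and 0.229. Between 4.5DDC and 6.5DDC these kinds of pair gave 0.449 and 0.430, above every same-numbered value of that span. The ranges of these values and of the same-numbered pairs of replicates 2 and 3 overlapped. The correlations thus set replicate 1 apart and do not separate replicates 2 and 3 by number. Named genes were the 10 members, every relative, the signaling genes with an edgeR adjusted p under 0.05 over the whole span, and the 3 genes most correlated with each member; some genes are not reported here. Members and lists were chosen with earlier results of these data known. Tubb3 and Igf2os had no row of that symbol.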

Additional observations from a re-analysis of the deposited data

How the results depend on the processing

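Over the whole span, 1 of the 10 genes was called, and the count was 0 under limma voom, the 3 limma fits of FPKM, the fit of the 6 libraries compared and the fit with replicates 2 and 3 of 5.5DDC summed, 2 under DESeq2 (Igf1 and Pappa), 3 with the replicate block (Igf1, adjusted p = 0.00845, Igfbp4, 0.0494, and Pappa), 5 in replicates 2 and 3, and 4 in these without 5.5DDC; it ran from 0 to 2 on leaving out 1 library. The summed fit and the fit without 5.5DDC were chosen after seeing the data. From 4.5DDC to 5.5DDC the count was 1 under DESeq2 and 2 in replicates 2 and 3 (Igfbp5 and Pappa), and from 5.5DDC to 6.5DDC it was 1 in replicates 2 and 3 (Igf1), in place of 0. The block changed no other call of the 10 genes.

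Among all genes, the 11 calls of the earlier interval became 25 without a filter, 454 under DESeq2, 1 in the fit of 6 libraries, 212 with the replicate block, 485 in replicates 2 and 3, 1 with the pair summed, and 1 to 28 on leaving out 1 library. The 33 calls of the later interval became 55 without scaling, 78 without a filter, 615 under DESeq2, 21 under voom, 8, 9 and 10 in the FPKM fits (pseudocount 1, 0.1, and 1 unfiltered), 0 in the fit of 6 libraries, 195 with the replicate block, 728 in replicates 2 and 3, 0 with the pair summed, and 0 to 196 on leaving out 1 library. The 2763 calls of the whole span became 3629 of 23118 genes under DESeq2, 3418 of 14742 with the replicate block and 4586 in replicates 2 and 3. They became 1937 in the fit of 6 libraries, 2005 with the pair summed and 1125 to 3132 on leaving out 1 library. The interval difference had 3 calls in each FPKM fit and 0 to 2 on leaving out 1 library, in place of 0.

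Directions turned for uncalled values. Igf1 from 4.5DDC to 5.5DDC (0.54) was -0.14 under voom, -0.39, -0.97 and -0.39 in the FPKM fits, and -0.057 to 1.13 on leaving out 1 library. In replicates 2 and 3, the change from 5.5DDC to 6.5DDC was -0.084 for H19, 0.19 for Igf2r and -0.22 for Igfbp5, and that of Igfbp3 from 4.5DDC to 5.5DDC was -0.24. On leaving out 1 library, the earlier interval ranged from -0.022 to 0.62 for Igf2 and -0.083 to 0.36 for Igfbp3, and the later from -0.056 to 0.59 for Igf2, -0.11 to 0.23 for H19, -0.038 to 0.34 for Igf1r, -0.18 to 0.21 for Igf2r, -0.044 to 0.52 for Igfbp3 and -0.036 to 0.32 for Igfbp5. The H19 to Igf2 ratio difference (-0.088) was 0.15 in FPKM and -0.37 to 0.17 on leaving out 1 library. The cause was not tested in any of these cases. At these depths, 3 counts were worth 0.118 to 0.271 CPM, which limits what can be said of Igf1 and of the genes that did not pass the filter.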
